A study of Mus musculus with 12 samples.

Results

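The protein components of plasma lipoproteins that the liver makes were followed here at the RNA level, in the livers of 12 adult male C57BL/6J mice. The genes were 9 apolipoproteins (Apoa1, Apoa2, Apoa4, Apoa5, Apob, Apoc1, Apoc2, Apoc3 and Apoe) and Mttp, chosen by symbol from the 16821 genes listed. All 10 were found. All 10 also passed the filter on low values, 1 FPKM or more in 6 mice or more, which left 10241 genes to test. FPKM counts the fragments of a gene for each kilobase of its transcript, relative to all mapped fragments of the library.

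The labels name no transgene or deletion in these mice. The 6 mice of the sedentary control (Con) group did not run, and the 6 of the chronic exercise (Exe) group had 6 weeks of moderate treadmill running. Livers were rinsed with saline and collected no later than 24 h after the last session. A library was made from each mouse, so the mouse is the replicate. In whole liver RNA, fewer cells of a type and less RNA per cell cannot be told apart.

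Lipoproteins carry triglyceride and cholesterol through plasma as droplets coated with phospholipid and apolipoproteins. In the liver, microsomal triglyceride transfer protein (Mttp) loads lipid onto apolipoprotein B, each very low-density lipoprotein (VLDL) particle keeps its molecule of apolipoprotein B, and the A, C and E apolipoproteins move between particles. Apolipoproteins A-I and A-II form the body of high-density lipoprotein (HDL), those of the C group tune lipolysis by lipoprotein lipase, and apolipoprotein E binds the receptors that clear remnants.

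Of the 10 genes, 5 were among the 25 genes with the highest mean FPKM. Together the 10 made up 7.25 ± 0.687% (SD, n = 6) of all FPKM in Con and 8.17 ± 0.896% (SD, n = 6) in Exe. Per mouse the share ran from 6.64% to 8.19% in Con, with a median of 6.91%, and from 7.15% to 9.85% in Exe, with a median of 8.03%. The ranges overlapped, and Exe 2 had the highest share.

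Ordered by mean FPKM over the 12 mice (± SD), Apoe came first with 16191 ± 1245, sixth among all genes, then Apoa2 with 15762 ± 2456, Apoa1 with 11744 ± 991 and Apoc1 with 11180 ± 1345. Apoc3 followed with 4182 ± 578. Apoa5 reached 409 ± 74.0, Apob 260 ± 15.5 and Apoc2 252 ± 19.5. Mttp at 56.8 ± 6.99 and Apoa4 at 56.2 ± 13.2 were the lowest. Some neighbours in this order did not separate. Apoe exceeded Apoa2 in 6 of 12 mice, Apob exceeded Apoc2 in 7, and Mttp exceeded Apoa4 in 7. Apoa2 exceeded Apoa1 in 11 mice and Apoa1 exceeded Apoc1 in 9. The steps from Apoc1 to Apoc3, from Apoc3 to Apoa5, from Apoa5 to Apob and from Apoc2 to Mttp were seen in all 12.

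How much a gene varied between mice did not follow its level. Apob varied least, with a coefficient of variation of 5.96% over the 12 mice, followed by Apoe at 7.69% and Apoc2 at 7.74%. Apoa4 varied most, at 23.4%, followed by Apoa5 at 18.1% and Apoa2 at 15.6%. Exe 2 had the highest value of 6 of the 10 genes, and Con 3 the lowest value of 3.

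**Figure D1:**
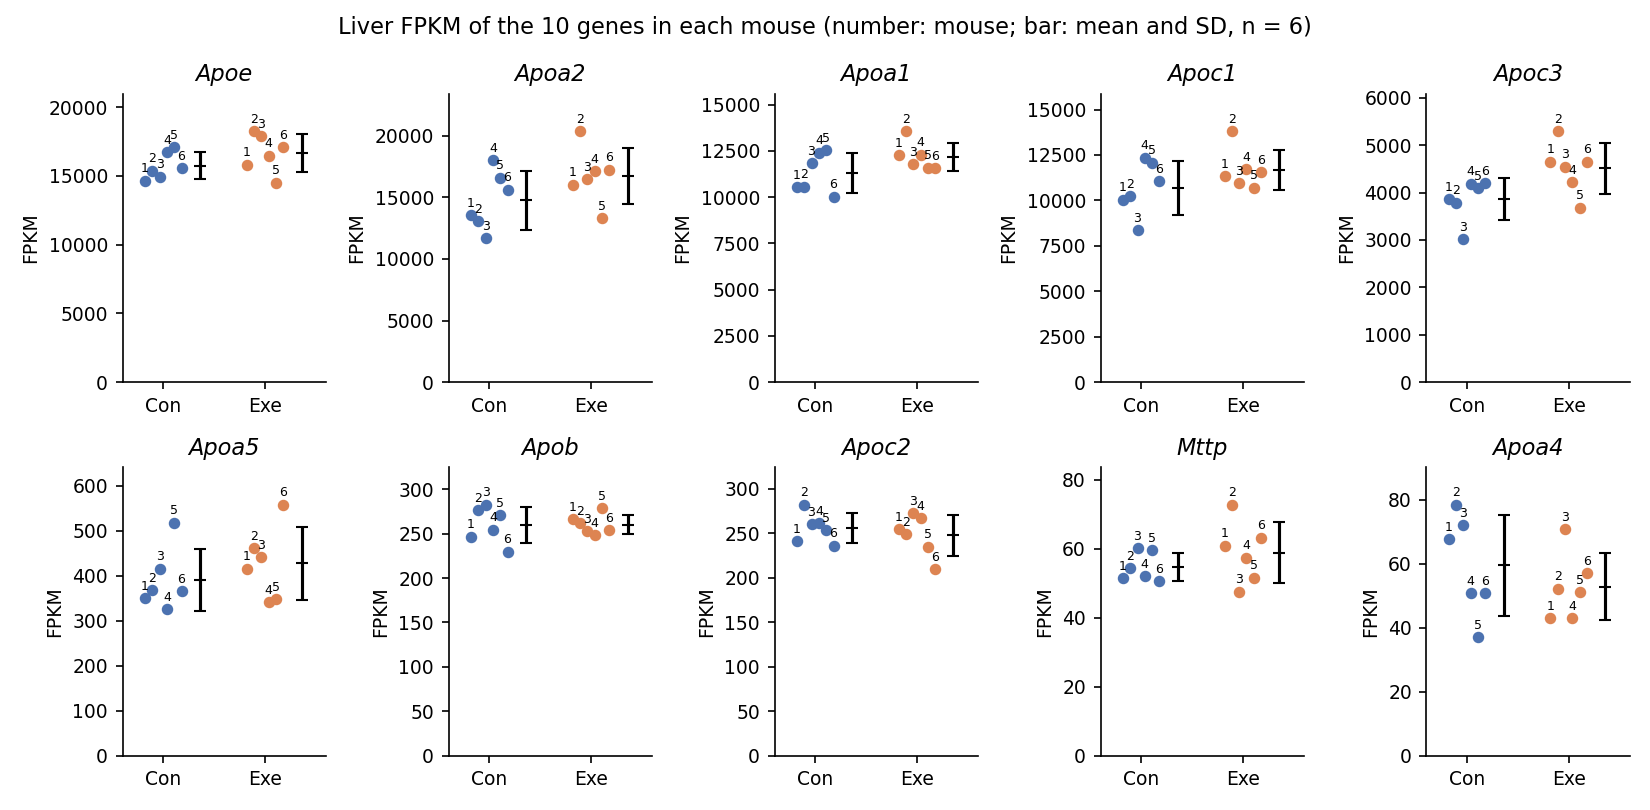
FPKM of the 10 genes in each mouse, with a panel per gene and a linear axis from 0. Each point is a mouse, labelled with its number, and the bar gives the mean and SD of 6 mice. The groups overlap in every panel, and Apoc3 is the panel in which 5 of 6 Exe mice lie above all Con mice.

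Several of these genes sit side by side in the genome. In the RefSeq annotation of GRCm38.p6, Apoa1, Apoc3, Apoa4 and Apoa5 follow each other on chromosome 9, and Apoc2, Apoc4, Apoc1 and Apoe lie together on chromosome 7. Apoa2 on chromosome 1, Apob on chromosome 12 and Mttp on chromosome 3 stand outside both clusters. All 10 genes had a row in that annotation, and 8 had a promoter window in the RefSeq promoter table. Of these windows, 4 are printed here because of what the genes did between mice. Apoa2 and Apoe had a high correlation over the mice, that of Apoa1 with each of them was lower, and Apob was the steadiest of the 10. Each sequence gives the 250 bases before the annotated start, 5′ to 3′ on the strand of the gene, in the build GRCm38.p6.

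Apoa1, chr9:46228380-46228629, plus strand: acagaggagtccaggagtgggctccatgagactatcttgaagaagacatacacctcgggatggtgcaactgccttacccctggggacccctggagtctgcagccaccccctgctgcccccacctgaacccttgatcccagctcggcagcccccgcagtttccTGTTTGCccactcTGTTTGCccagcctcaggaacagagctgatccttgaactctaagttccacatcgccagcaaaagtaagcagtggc

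Apoa2, chr1:171224804-171225053, plus strand: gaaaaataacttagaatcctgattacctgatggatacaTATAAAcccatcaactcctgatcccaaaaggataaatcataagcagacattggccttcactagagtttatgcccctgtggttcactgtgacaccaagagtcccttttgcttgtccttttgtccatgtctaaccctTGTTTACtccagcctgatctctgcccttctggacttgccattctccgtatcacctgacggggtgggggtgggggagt

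Apoe, chr7:19699189-19699438, minus strand: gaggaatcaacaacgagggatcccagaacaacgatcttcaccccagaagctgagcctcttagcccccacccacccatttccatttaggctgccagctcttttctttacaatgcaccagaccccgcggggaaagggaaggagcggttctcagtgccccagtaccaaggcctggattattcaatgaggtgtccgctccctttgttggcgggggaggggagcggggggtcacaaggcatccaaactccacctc

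Apob, chr12:7977427-7977676, plus strand: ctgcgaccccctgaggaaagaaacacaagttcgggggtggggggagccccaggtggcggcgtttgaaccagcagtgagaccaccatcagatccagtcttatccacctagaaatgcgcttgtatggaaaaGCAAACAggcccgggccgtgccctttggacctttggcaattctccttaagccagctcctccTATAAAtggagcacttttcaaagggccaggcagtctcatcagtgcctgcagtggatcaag

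Capitals mark matches, on either strand, to 5 motifs chosen after the windows had been seen: TATAAA (the TATA box), AGGTCA (a core motif of nuclear receptors), CACGTG (the E-box), and TGTTTAC and TGTTTGC (forms of the forkhead motif). No match in these windows overlaps another. TGTTTGC occurs at 88 and 75 bases before the start of Apoa1 and at 121 bases before that of Apob, there on the other strand. TGTTTAC occurs 77 bases before the start of Apoa2. TATAAA occurs 60 bases before the start of Apob and 212 bases before that of Apoa2. The Apoe window holds none of these letters. Of all 32851 windows of the same length, 4.3% hold TGTTTGC, 3.17% TGTTTAC and 12.37% TATAAA. Among the 8 windows found, TGTTTGC is in 3, TATAAA in 3 and TGTTTAC in 1. A further match to AGGTCA is in Apoc2 and one to CACGTG in Apoa5, against 14.02% and 6.02% of all windows.

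To ask whether 6 weeks of running changed hepatic apolipoprotein transcripts, log2(FPKM + 1) was compared between groups with limma in a fit over all genes tested. A difference is given as Exe minus Con. None of the 10 genes passed an adjusted p of 0.05, and neither did any gene tested (0% of 10241). At an unadjusted p of 0.05 the comparison held 1 of the 10 genes, Apoc3, beside 6.21% of all genes tested (636 genes). Of the 636 genes, 68.71% were higher in Exe, a share that was 88.03% after rescaling each mouse to the same FPKM total, 90.73% when the 10 genes were left out of that total and 56.4% after quantile normalization. The difference was above 0 for 8 of the 10 genes, beside 57.5% of all genes, and the groups did not overlap for 0 of the 10, beside 0.254% of all. The median log2 fold change was 0.10 for the 10 genes and 0.02 for all genes tested.

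**Figure D2:**
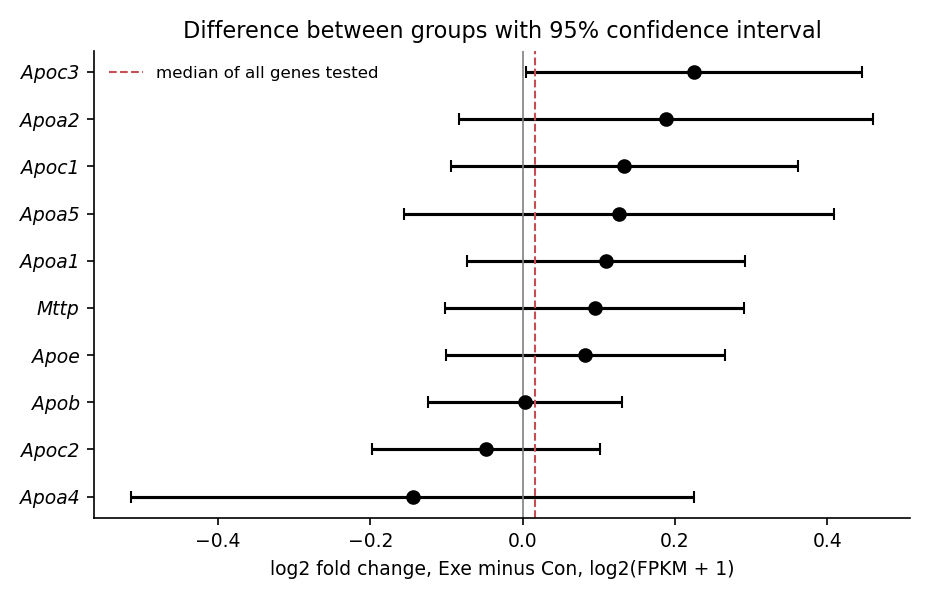
Log2 fold change, Exe minus Con, of each gene on the log2(FPKM + 1) scale, with its 95% confidence interval from limma (n = 6 mice per group). The dashed line marks the median of all genes tested, 0.02, and every interval but that of Apoc3, which starts at 0.00, reaches below 0.

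Among the genes that act on lipolysis, Apoc3, whose protein slows lipoprotein lipase and the uptake of remnants, had the largest difference. In Con its FPKM ran from 3018 to 4195 with a median of 3980, and in Exe from 3684 to 5295 with a median of 4596. Of the Exe mice, 5 lay above every Con mouse, and Exe 5 lay below all Con mice but Con 3. The group means were 3857 ± 444 and 4508 ± 533 FPKM (SD, n = 6). The log2 fold change was 0.22 (95% CI 0.00 to 0.45, SE 0.10), with an unadjusted p of 0.0463 and an adjusted p of 0.799 in limma. The exact two-sided permutation test over all divisions of the mice gave p = 0.052. The lowest Con mouse, Con 3, stood apart in this gene, and without it the log2 fold change was 0.16. Without Exe 5 it was 0.28. The unadjusted p was above 0.05 when Con 1, Con 2, Con 3, Exe 1, Exe 2, Exe 3 or Exe 6 was left out, from 0.0643 without Con 1 to 0.109 without Con 3 in limma.

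Apoc2 encodes the cofactor that lipoprotein lipase requires. Its FPKM ran from 236 to 282 in Con (median 257) and from 210 to 272 in Exe (median 252). The Exe range reached lower than the Con range and covered most of it. Apoc2 differed by a log2 fold change of -0.05 (95% CI -0.20 to 0.10, SE 0.07, limma adjusted p 0.954), and the exact permutation p was 0.507. Without Exe 6 the difference was -0.0006. A readthrough gene model, Gm44805, spans Apoc2 and Apoc4 and was listed with 1.32 to 9.01 FPKM, so fragments of Apoc2 may have been divided between them in a way the files do not show.

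The balance of the inhibitor and the cofactor can be read from their ratio. Apoc3 was 15.2 ± 2.23 times Apoc2 in Con and 18.3 ± 2.81 times in Exe (SD, n = 6). The ratio ran from 11.6 to 17.8 in Con and from 15.7 to 22.2 in Exe. The ranges overlapped, and this difference was not tested.

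Apoa5, whose protein promotes lipolysis at the vessel wall, ran from 326 to 518 FPKM in Con (median 367) and from 341 to 558 in Exe (median 428). The ranges nearly coincided. A high mouse was present in each group, Con 5 and Exe 6. Exe minus Con, Apoa5 had a log2 fold change of 0.13 (95% CI -0.16 to 0.41, SE 0.13, limma adjusted p 0.933), and it was 0.05 without Exe 6 and 0.21 without Con 5.

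Of the HDL genes, Apoa1 encodes the scaffold of HDL and the activator of Lcat. Its FPKM ran from 10018 to 12521 in Con (median 11196) and from 11550 to 13564 in Exe (median 12025). All 6 Exe mice lay above the Con median, and 3 of the Con mice lay below every Exe mouse. For Apoa1 the log2 fold change was 0.11 (95% CI -0.07 to 0.29, SE 0.09, limma adjusted p 0.922), and the exact permutation p was 0.126.

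Apoa2 encodes the second protein of HDL by abundance and had the next largest difference after Apoc3. In Con its FPKM ran from 11700 to 18009 (median 14593) and in Exe from 13304 to 20374 (median 16803). Of the Exe mice, 1 lay above every Con mouse and 5 lay above the Con median. The group means were 14761 ± 2380 and 16762 ± 2281 FPKM (SD, n = 6). The log2 fold change was 0.19 (95% CI -0.08 to 0.46, SE 0.13, limma adjusted p 0.900), and the exact permutation p was 0.173. Without Con 3 the log2 fold change was 0.12. After quantile normalization it was 0.42 (exact permutation p 0.0346), above that of Apoc3 under the same scaling, 0.38. Tomm40l, which overlaps Apoa2 in the RefSeq annotation, was at 4.76 ± 0.229 FPKM in Con and 4.19 ± 0.175 in Exe, far below Apoa2.

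Apoa4, whose protein sits on chylomicrons and HDL and which is made mainly in the intestine, was among the 2 genes that were lower in Exe on average. Its FPKM ran from 37.1 to 78.5 in Con (median 59.3) and from 43.1 to 70.9 in Exe (median 51.7). Con 1, Con 2, Con 3 and Exe 3 were the high mice, and Con 5 the lowest. For Apoa4 the log2 fold change was -0.14 (95% CI -0.51 to 0.23, SE 0.17, limma adjusted p 0.944), an interval that holds both a fall and a rise. It was -0.06 without Con 2 and -0.27 without Con 5.

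Markers of intestinal epithelium were set beside Apoa4. Of the 12 fixed, 9 were listed, and their summed FPKM ran from 40.6 to 178 in Con and from 43.1 to 97.0 in Exe. Only 2 of them passed the filter on low values. Fabp2 was at 43.2 ± 9.595 FPKM in Con and 48.5 ± 10.8 in Exe, and Lgals4 at 11.7 ± 5.95 and 10.4 ± 6.19. Sis, Alpi and Reg3b were not listed, and Cdx1 and Cdx2 were at 0 in all mice but Con 6. The highest sum, in Con 6, came mostly from Dmbt1, at 130 FPKM there, 27.3 in Exe 4 and at most 0.12 elsewhere. Apoa4 was at 50.9 FPKM in Con 6, below the Con median.

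Apoc1, whose protein inhibits lipid transfer and hepatic uptake of lipoproteins, ran from 8380 to 12356 FPKM in Con (median 10648) and from 10695 to 13810 in Exe (median 11439). All 6 Exe mice lay above the Con median, and Con 3 was the lowest and Exe 2 the highest of the 12. Apoc1 differed by a log2 fold change of 0.13 (95% CI -0.09 to 0.36, SE 0.11, limma adjusted p 0.924). It was 0.07 without Con 3 and 0.24 after quantile normalization.

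Apoe, the ligand of remnant receptors, ran from 14649 to 17070 FPKM in Con (median 15463) and from 14495 to 18245 in Exe (median 16776). Exe mice made up both ends of the range, with 3 above every Con mouse and Exe 5 below all of them. The log2 fold change was 0.08 (95% CI -0.10 to 0.27, SE 0.09, limma adjusted p 0.933).

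Of the genes of VLDL assembly itself, Apob had the smallest difference of the 10 genes and Mttp a difference near their median of 0.10. Apob, the structural protein of VLDL, ran from 230 to 283 FPKM in Con (median 263) and from 248 to 278 in Exe (median 258), so that the Exe range lay inside the Con range. Its log2 fold change was 0.00 (95% CI -0.12 to 0.13, SE 0.06, limma adjusted p 0.998), the narrowest interval of the 10 genes. Mttp ran from 50.6 to 60.1 FPKM in Con (median 53.3) and from 47.6 to 72.8 in Exe (median 59.2). The Exe mice spread wider than the Con mice, with 3 above and 1 below all of them. The log2 fold change of Mttp was 0.09 (95% CI -0.10 to 0.29, SE 0.09, limma adjusted p 0.931), and it was 0.03 without Exe 2 and 0.15 without Exe 3. The ratio of Apob to Mttp was 4.75 ± 0.206 in Con and 4.502 ± 0.717 in Exe (SD, n = 6).

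The genes that work with these 10 were read from lists by role. These lists were chosen with earlier results of these data known, so their shares are descriptions and no independent test. Of the 30 genes of VLDL assembly, lipidation and secretion, 29 were tested, 21 with a difference above 0. At an unadjusted p of 0.05 the list held 7 genes (24.14%, beside 6.21% of all genes), 6 of them higher in Exe, and none passed the adjusted p. Its median log2 fold change was 0.08, beside 0.02 for all genes. The count depended on single mice and on the scaling. It was 3 of 29 without Exe 2 (10.34%, beside 4.08% of all genes) and 3 of 29 after quantile normalization (10.34%, beside 6.02%). Without Con 6, Exe 1 or Exe 6 it was 5 (17.24%, beside 5.19%, 5.54% and 5.05% of all genes). After rescaling to the same total it was 10 (34.48%, beside 7.59%).

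The 7 genes were these. P4hb, the protein disulfide isomerase that is the partner subunit of Mttp, was at 502 ± 32.3 FPKM in Con and 558 ± 27.6 in Exe (log2 fold change 0.15, limma adjusted p 0.793). Tm6sf2, needed for the lipidation of VLDL, was at 18.3 ± 0.994 and 22.3 ± 4.06 FPKM (0.26, adjusted p 0.793). Smlr1, a small membrane protein of VLDL export, was at 33.1 ± 5.72 and 39.3 ± 3.11 FPKM (0.25, adjusted p 0.793). The chaperones Canx (0.11) and Dnajc3 (0.17) and the coat GTPase Arf1 (0.12) were the other higher genes. Sort1, a sorting receptor that binds apolipoprotein B, was lower, at 5.26 ± 0.903 and 4.06 ± 0.898 FPKM (-0.31, adjusted p 0.793). Aadac, a lipase of the endoplasmic reticulum and after P4hb the most abundant of the list, was at 362 ± 50.9 and 367 ± 40.3 FPKM.

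Of the 17 genes of HDL formation and remodelling tested, 9 were above 0 and 2 were at an unadjusted p of 0.05 (11.76%, beside 6.21% of all genes), 1 in each direction. Pon1, the paraoxonase carried on HDL, was at 425 ± 38.3 FPKM in Con and 511 ± 48.1 in Exe (log2 fold change 0.26, limma unadjusted p 0.00384, adjusted p 0.756). Lipg, endothelial lipase, was at 4.21 ± 2.22 and 2.02 ± 0.888 FPKM (-0.74, adjusted p 0.793). Lcat, which esterifies cholesterol on HDL, was at 331 ± 15.985 and 354 ± 33.7 FPKM. The median of the list was 0.01.

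Of the other apolipoproteins, 11 of 16 were tested, 6 above 0, with a median of 0.04. Clu, the clusterin also called apolipoprotein J, was the single one at an unadjusted p of 0.05 (9.09%, beside 6.21% of all genes), at 1372 ± 158 FPKM in Con and 1197 ± 111 in Exe (-0.19, limma adjusted p 0.799). Apoc4, the remaining gene of the chromosome 7 cluster, was at 1771 ± 171 and 1873 ± 171 FPKM, and Apoh, the plasma glycoprotein beta-2-glycoprotein I, at 1612 ± 86.4 and 1734 ± 159.

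No gene passed an unadjusted p of 0.05 in the lists of Apob mRNA editing (7 tested, 2 above 0), triglyceride lipolysis (13 tested, 5 above 0), lipoprotein receptors (18 tested, 7 above 0) and transcriptional regulators (30 tested, 13 above 0). Their medians were -0.03, -0.01, -0.01 and -0.04. Abundant genes of these lists were Hnrnpab, an RNA-binding protein, at 75.9 ± 3.16 FPKM in Con and 73.2 ± 3.56 in Exe and A1cf, the editing cofactor, at 20.9 ± 4.502 and 21.3 ± 3.70. Lsr, a lipolysis-stimulated receptor, was at 104 ± 9.89 and 110 ± 7.36 FPKM, and Sdc1, the syndecan that binds remnants and is on the lists of lipolysis and of receptors, was at 75.1 ± 7.27 and 74.6 ± 8.18. Creb3l3, a liver factor that drives Apoa4 and Apoc2, was at 178 ± 15.2 and 169 ± 22.8 FPKM, and Cebpa, a hepatocyte transcription factor, at 163 ± 7.90 and 154 ± 9.66.

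Although the groups differed little, the mice differed in a shared way. Over the 12 mice, Pearson's r was computed for all 45 pairs of the 10 genes, with a permutation test and Benjamini-Hochberg adjustment over the 45. A positive relation passed an adjusted p of 0.05 in 6 pairs, and these were all the pairs among Apoa2, Apoc1, Apoc3 and Apoe, a set named after the values were seen. No pair passed with an r below 0. The share of pairs among all genes tested that reach such an r was not computed.

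**Figure D3:**
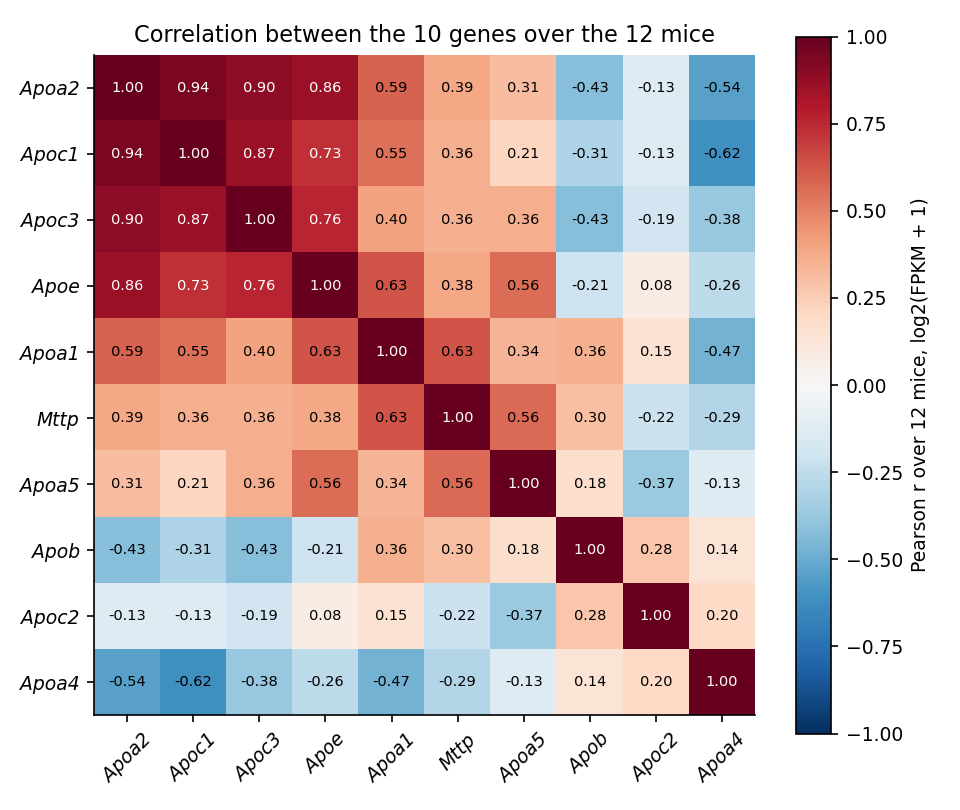
Pearson's r of log2(FPKM + 1) over the 12 mice for each pair of the 10 genes, from -1 (blue) to 1 (red). The block at the upper left holds the 6 pairs among Apoa2, Apoc1, Apoc3 and Apoe, from 0.73 to 0.94, and the row of Apoa4 is mostly below 0.

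The tightest pair was Apoa2 and Apoc1, with r = 0.939 (permutation p 1e-05, the smallest that could be reached, adjusted p 0.00045) and Spearman's rho 0.930 (permutation, adjusted p 0.00135). Con 3 was low and Exe 2 high in both genes, and without these mice r was 0.893 (permutation p 0.0006). Within Con r was 0.966 (exact p 0.00278, n = 6) and within Exe 0.883 (exact p 0.0292, n = 6). The relation was therefore present in each group.

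Apoa2 was also related to Apoc3, with r = 0.898 (permutation, adjusted p 0.0018) and rho 0.783 (adjusted p 0.0468). Without Con 3 and Exe 2, r was 0.761 (permutation p 0.0121). For Apoa2 and Apoe, r was 0.863 (permutation, adjusted p 0.0045), rho 0.839 (adjusted p 0.0223) and r without Con 3 and Exe 2 0.828 (permutation p 0.00365). These relations held without the most extreme mice.

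The relation of Apoc1 and Apoc3 was weaker by rank and without Con 3 and Exe 2. Its r was 0.866 (permutation, adjusted p 0.0105), but rho was 0.671 (adjusted p 0.132) and r without these mice 0.491 (permutation p 0.150). With all mice of a group, r was 0.925 in Con (exact p 0.0125, n = 6) and 0.779 in Exe (exact p 0.0972, n = 6). For Apoc1 and Apoe, r was 0.732 (permutation, adjusted p 0.030), rho 0.755 (adjusted p 0.0566) and r without the same mice 0.663 (permutation p 0.0374). For Apoc3 and Apoe, r was 0.763 (permutation, adjusted p 0.022), rho 0.804 (adjusted p 0.0367) and r without them 0.719 (permutation p 0.0212). Within Con, the r of the 6 pairs ran from 0.575 to 0.966, and within Exe from 0.6246 to 0.912.

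FPKM of abundant genes share a denominator, so the pairs were recomputed with other scalings. With each mouse rescaled to the same total of all other genes, r of the 6 pairs was between 0.793 and 0.951, after quantile normalization between 0.639 and 0.925, and for deviations from the group means between 0.685 and 0.928. The 3 pairs among Apoa2, Apoc1 and Apoc3 passed an adjusted p of 0.05 in the permutation test under each of these. The pairs with Apoe did not all pass. After quantile normalization the adjusted p was 0.136 for Apoa2 and Apoe and 0.12 for Apoe with Apoc1 and with Apoc3, and for deviations from the group means it was 0.0991 for Apoe with Apoc1 and with Apoc3 (permutation). Apoa1 and Apoe, whose r of 0.6252 had an adjusted p of 0.152 in FPKM as deposited, passed after both rescalings and after quantile normalization (permutation, adjusted p 0.028, 0.0147 and 0.0152), and Apoa1 and Mttp passed after both rescalings (adjusted p 0.0345 and 0.0237). Which genes join Apoa2, Apoc1 and Apoc3 therefore changed with the scaling.

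Lying in the same cluster did not go with a higher median r. The median r was 0.106 for the 6 pairs within the chromosome 9 cluster (range -0.469 to 0.402) and 0.0754 for the 3 pairs within the chromosome 7 cluster (range -0.131 to 0.732). It was 0.289 for the 36 pairs not in the same cluster (range -0.616 to 0.939), which hold the pairs that passed above except Apoc1 and Apoe. Of directly adjacent genes, r was 0.732 for Apoc1 and Apoe, 0.402 for Apoa1 and Apoc3 and -0.127 for Apoa4 and Apoa5. Apoc3 and Apoa4, also adjacent, had an r of -0.378 (permutation, adjusted p 0.441). The lowest of the 45 was that of Apoa4 and Apoc1, at -0.616 (permutation, adjusted p 0.152).

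Genes outside the list also varied between the mice. The acute-phase genes, which the liver induces in inflammation, varied strongly: the summed FPKM of 10 such genes ran from 4702 to 36421 in Con and from 4947 to 35497 in Exe. All 10 were lower in Exe on average (median log2 fold change -0.27), and none passed an unadjusted p of 0.05 in limma. Saa1, a serum amyloid that displaces apolipoprotein A-I on HDL in inflammation, ran from 153 to 9260 FPKM in Con and from 149 to 8994 in Exe. By the sum of the 10 acute-phase genes, Con 1 was the highest Con mouse and Exe 5 the highest Exe mouse. The groups were not placed alike: the median sum was 17075 FPKM in Con and 9079 in Exe. Con 2, Con 3 and Con 6 also lay above every Exe mouse but Exe 5.

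The mean log2(FPKM + 1) of the acute-phase genes was related to each of the 10 genes over the 12 mice. With adjustment over the 10 relations, 5 passed an adjusted p of 0.05 in the permutation test. The share of all genes tested that is related as strongly to this mean was not computed, so the count has no background. Apoa2 was lower where the acute-phase genes were higher, with r = -0.819 (permutation, adjusted p 0.0115) and rho -0.804 (adjusted p 0.0117). Without Con 1 and Exe 5 r was -0.783 (permutation p 0.00195). Within Con r was -0.804 (exact p 0.0597, n = 6) and within Exe -0.848 (exact p 0.050, n = 6). The relation had the same sign and a like size in each group.

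Apoa1 (r = -0.755, permutation, adjusted p 0.0133; rho -0.776, adjusted p 0.0143) and Apoc1 (r = -0.741, adjusted p 0.0128; rho -0.874, adjusted p 0.005) behaved likewise, and without Con 1 and Exe 5 their r was -0.782 and -0.779 (permutation p 0.0037 and 0.0011). For Apoe r was -0.770 (permutation, adjusted p 0.0133) and rho -0.699 (adjusted p 0.0347), but without Con 1 and Exe 5 r was -0.616 (permutation p 0.0633). Within the groups r was -0.797 and -0.691 for Apoa1 (exact p 0.0653 in Con and 0.143 in Exe, n = 6 each), -0.750 and -0.706 for Apoc1 (exact p 0.0944 and 0.140) and -0.973 and -0.620 for Apoe (exact p 0.00833 and 0.185).

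Apoa4 went the other way, with r = 0.654 (permutation, adjusted p 0.0467), rho 0.629 (adjusted p 0.0654) and r without Con 1 and Exe 5 of 0.765 (permutation p 0.0119). Within Con r was 0.793 and within Exe 0.359 (exact p 0.075 and 0.492, n = 6 each). Apoc3 (r = -0.567, permutation, adjusted p 0.0841), Mttp (-0.472, adjusted p 0.169), Apoa5 (-0.279, adjusted p 0.469), Apoc2 (-0.174, adjusted p 0.665) and Apob (0.114, adjusted p 0.724) did not pass. With the acute-phase mean as a term in the limma fit, 0 of the 10 genes were at an unadjusted p of 0.05 for the group, beside 5.84% of all genes, and Apoc3 had a log2 fold change of 0.18 (SE 0.09, unadjusted p 0.0588). The genes that had passed were nearer to 0 with this term than without it. The log2 fold change went from 0.19 to 0.11 for Apoa2, from 0.13 to 0.08 for Apoc1 and from 0.11 to 0.07 for Apoa1. It went from 0.08 to 0.05 for Apoe and from -0.14 to -0.05 for Apoa4.

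**Figure D4:**
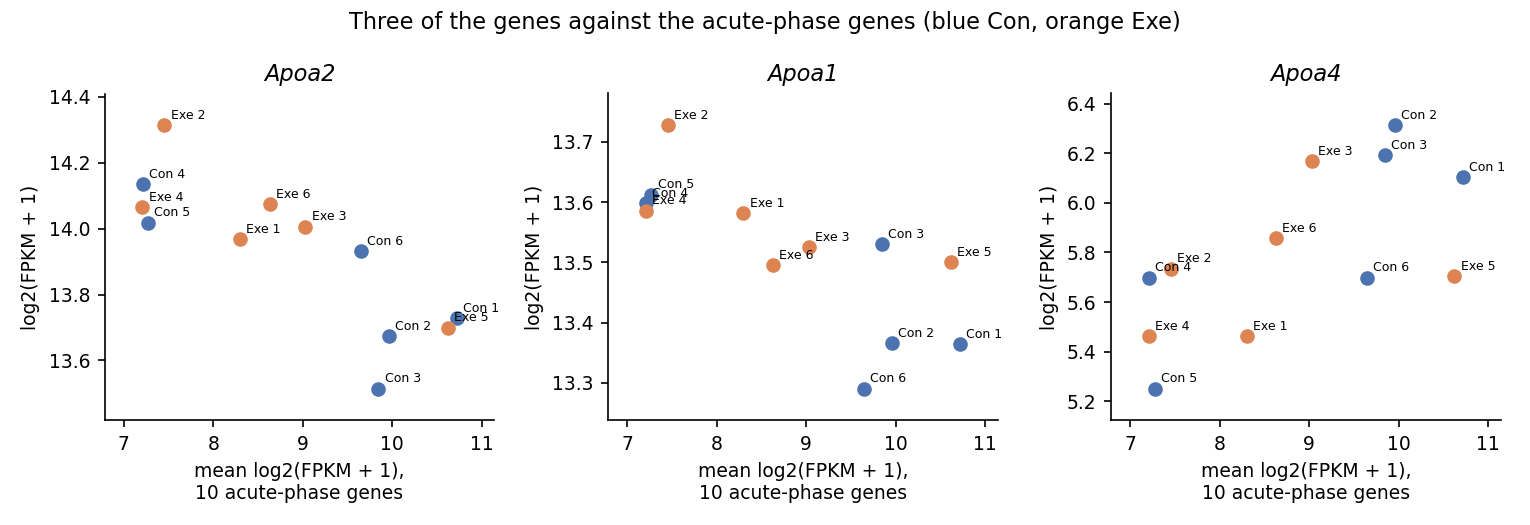
Log2(FPKM + 1) of Apoa2, Apoa1 and Apoa4 (y axis) against the mean log2(FPKM + 1) of 10 acute-phase genes (x axis) in each mouse, Con in blue and Exe in orange. Apoa2 and Apoa1 fall to the right (r = -0.819 and -0.755) and Apoa4 rises (r = 0.654). Both groups reach both ends of the x axis, but no Con mouse lies between Con 5 at 7.27 and Con 6 at 9.65. No Exe mouse lies between Exe 3 at 9.03 and Exe 5 at 10.62.

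Of the 4 related genes, 3 were short by the median length of their GENCODE transcripts, at most 600 bases for Apoa2, Apoc1 and Apoc3. The length used is the median over all protein-coding transcripts of a gene and need not be that of its main transcript. The 101 other genes of at most 600 bases with a mean of at least 100 FPKM were taken, after the pairs had been seen, and their median deviation from the mean of the 12 mice ran from -0.19 in Con 3 to 0.14 in Exe 2 on the log2 scale. These were the same mice at the ends of Apoa2 and Apoc1. This median was related to Apoa2 with r = 0.920 (permutation, adjusted p 0.0007 over 10 relations) and to Apoc1 with r = 0.893 (adjusted p 0.00075), and without Con 3 and Exe 2 r was 0.832 and 0.729 (permutation p 0.0039 and 0.0164). For Apoc3 r was 0.828 (permutation, adjusted p 0.0048) and for Apoe 0.724 (adjusted p 0.0181), and without the same mice 0.538 and 0.612 (permutation p 0.107 and 0.0593). Spearman's rho was 0.951, 0.881, 0.825 and 0.797 for Apoa2, Apoc1, Apoc3 and Apoe (permutation, adjusted p 0.0001, 0.00145, 0.00613 and 0.00787). Within Con r was 0.931 for Apoa2, 0.929 for Apoc1, 0.872 for Apoc3 and 0.696 for Apoe (exact p 0.00139, 0.00417, 0.00972 and 0.117, n = 6), and within Exe 0.871, 0.798, 0.604 and 0.682 (exact p 0.00833, 0.0222, 0.197 and 0.122, n = 6). The other 6 genes did not pass in the same permutation test. How many of all genes tested are related as strongly to the short, abundant transcripts was not computed. The median lengths were 631 bases for Apoc2 (r = -0.0294, permutation, adjusted p 0.929) and 611 for Apoa5 (r = 0.0392, adjusted p 0.929). They were 817 for Apoe and 818.5 for Apoa1 (r = 0.542, permutation, adjusted p 0.136). Whether the main transcripts of these genes rank in this order was not checked. The remaining r were 0.270 for Mttp, -0.423 for Apob and -0.476 for Apoa4. With all 375 other short genes tested, whatever their level, 2 of the 10 relations passed, those of Apoa2 (r = 0.796, permutation, adjusted p 0.00965) and Apoc1 (r = 0.807, adjusted p 0.00965). For the 5140 other genes over 2000 bases, the median deviation ran from -0.05 in Con 1 to 0.06 in Exe 2, with Con 3 at 0.03. Exe 2 was thus the highest mouse for long genes too. The relation of the long genes to the 10 genes was not computed.

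**Figure D5:**
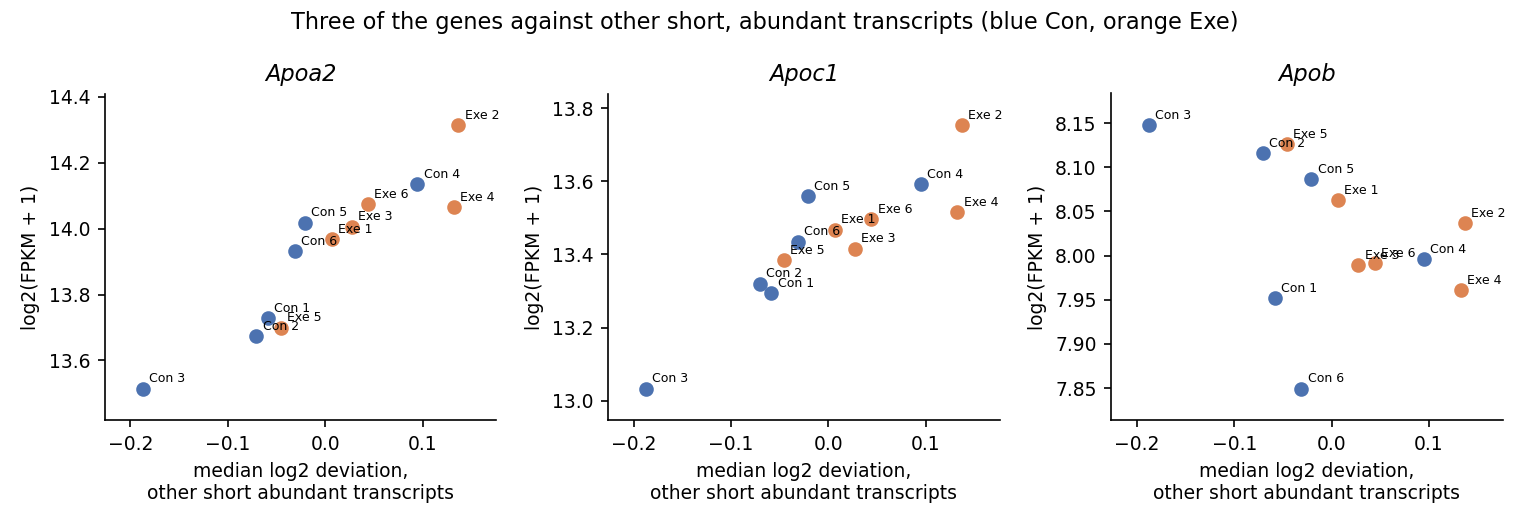
Log2(FPKM + 1) of Apoa2, Apoc1 and Apob (y axis) against the median log2 deviation of 101 other short, abundant transcripts (x axis) in each mouse, Con in blue and Exe in orange. Apoa2 and Apoc1 rise from Con 3 on the left to Exe 2 on the right (r = 0.920 and 0.893), and Apob shows no such rise (r = -0.423).

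The median of the short, abundant transcripts was itself related to the acute-phase mean, with r = -0.745 over the 12 mice (permutation p 0.00491), rho -0.811 (permutation p 0.00233) and r of -0.780 without Con 3 and Exe 2 (permutation p 0.00775). The part of transcript length and that of the acute-phase genes in the shared movement of Apoa2, Apoc1, Apoc3 and Apoe were not tested against each other.

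The genes most like the 3 most variable of the 10 were sought among all other genes tested, by r of deviations from the group means over the 12 mice, and are given with no test because they were picked for their r. Apoa2 was followed most closely by Ndufb8 (0.977) and Cyc1 (0.945), subunits of the respiratory chain, and by Rnasek (0.949), ribonuclease kappa. Ndufb8 (median length 549 bases, mean 231 FPKM) and Rnasek (538 bases, 145 FPKM) are among the 101 short, abundant genes used above. Cyc1, at 716 bases and 147 FPKM, is not. Apoa4 was followed by Polr2k (0.929), a subunit of RNA polymerases, Itgb5 (0.889), an integrin, and Arhgef19 (0.855). Apoa5 was followed by Cdkal1 (0.891), a tRNA-modifying enzyme, Syt3 (0.879) and Arhgef26 (0.868), all below 7 FPKM on average.

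Markers of the cells of the liver were set beside these values. The 10 hepatocyte markers listed of 11 fixed summed to between 53745 and 68558 FPKM in Con and between 61188 and 76207 in Exe, and 9 of them were above 0 in the difference, with a median log2 fold change of 0.05. At an unadjusted p of 0.05 in limma the list held 2 higher genes and 1 lower of 10 tested, beside 6.21% of all genes tested. Alb, albumin, was at 34839 ± 4856 FPKM in Con and 43908 ± 4087 in Exe (log2 fold change 0.34, limma unadjusted p 0.0108, adjusted p 0.793), and Cps1, of the urea cycle, at 542 ± 64.3 and 663 ± 66.2 FPKM (0.29, adjusted p 0.777). Tat, which breaks down tyrosine, went the other way, at 678 ± 201 and 466 ± 159 FPKM (-0.55, limma unadjusted p 0.0338, adjusted p 0.793). All 11 markers of Kupffer cells and macrophages, which also make Apoe, were below 0, with a median of -0.23 and none at an unadjusted p of 0.05, and their sums ran from 313 to 573 FPKM in Con and from 227 to 520 in Exe. Of the 8 stellate cell and fibroblast markers, 7 were below 0 (median -0.23), with sums from 61.3 to 122 FPKM in Con and from 62.4 to 114 in Exe. Of the 5 red blood cell markers, 4 were above 0 (median 0.75), with sums from 235 to 903 FPKM in Con and from 400.27 to 1290 in Exe, and Hbb-bs, a globin, had a log2 fold change of 0.83 (limma unadjusted p 0.0481, adjusted p 0.799). The part of these cell markers in the values of the 10 genes was not tested.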

How the data were processed

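Each of the 6 Con and 6 Exe livers gave an RNA-seq library. The authors aligned clean reads to GRCm39 with HISAT (the submitters' processing notes also name Bowtie2 and mm10), and the values they deposited are FPKM rounded to 2 decimals. The software and annotation that gave the FPKM and the strandedness are not given in the sources used here. The depth in reads is unknown. Relative depth, estimated from 16 genes whose FPKM stepped in whole multiples, lay between 0.978 and 1.021, and FPKM sums per mouse ran from 735200 to 820107.

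Log2(FPKM + 1) was compared with limma 3.58.1 (lmFit, eBayes with trend; R 4.3.3) over the 10241 genes at 1 FPKM or more in 6 mice or more, with Benjamini-Hochberg adjustment. The pseudocount of 1 understates changes of low genes. FPKM are not counts, so no count test was run, although the authors used DESeq. Single genes were tested with an exact two-sided permutation test, whose smallest p is 0.00216. Correlations were tested with 100000 two-sided permutations, those without 2 mice with 20000, and those within a group over all 720 orders. Permutations, promoter windows and figures used Python 3.11.15, numpy 2.4.6, pandas 2.3.3 and matplotlib 3.10.9. The fit and the depth estimate were tested on simulated data.

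The 10 genes, the role lists and the marker lists were chosen with earlier results of these data known. The genes named were all 10, of each role list those at an unadjusted p of 0.05 and the 2 highest by mean FPKM, the 3 genes most like each of the 3 most variable of the 10, and at most 3 genes from any marker list set beside a result. A gene that this rule names is not reported here. The promoter windows, Gm44805, Tomm40l, Cdx1 and Cdx2 and the short transcripts were named after values were seen. Where the promoter table held several windows of a gene, the one nearest the start of a principal transcript in GENCODE mouse release 21 was used. Transcript lengths, the median over all protein-coding transcripts of a gene, came from the same release and were found for 97.79% of the genes tested. The alternatives were other pseudocounts (0.1 and 5), no filter, a mean of at least 5 FPKM, rescaling to the same FPKM total with and without the 10 genes, quantile normalization, the replicate number as a block, robust variance moderation, the acute-phase mean as a term and each mouse left out.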

Additional observations from a re-analysis of the deposited data

Results flagged for a closer look

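Within a group of 6 mice, the gap between the most extreme mouse and the next, divided by the range of the group, was compared with Dixon's 95% critical value in 40 sets of values. It was exceeded in 9, where chance gives about 1 in 20. Among the 10 genes, Exe 2 was high for Apoa1 at 13564 FPKM (ratio 0.6296, the other Exe mice at most 12296) and for Apoc1 at 13810 FPKM (0.6754, the others at most 11706), and Con 3 was low for Apoc3 at 3018 FPKM (0.6521, the others at least 3785).

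The other 6 were sums of marker genes. The acute-phase genes summed to 35497 FPKM in Exe 5 (0.7895), where Apoe, Apoa2, Apoc1 and Apoc3 had their lowest Exe values. The cholangiocyte sum was 77.0 FPKM in Exe 5 (0.713). The pancreatic acinar sum was 24.5 FPKM in Exe 5 (0.8132) and 2.93 in Con 6 (0.7682). The intestinal epithelium sum was 178 FPKM in Con 6 (0.8043), where Apoa1 and Apob had their lowest values of the 12 mice. The sum of stellate cell and fibroblast markers was 61.3 FPKM in Con 5 (0.6646). The part of these markers in the values of the apolipoprotein genes was not tested.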

How the results depend on the processing

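Of 636 values recomputed under the alternatives, 601 kept their direction and side of the threshold, or stayed within 1.5 times a count or close to a median. Of the 601, 213 were log2 fold changes of the 10 genes. Their adjusted p in limma was at least 0.5088 in every setting, so only a change of sign could count, and it occurred in 7 further values. The number of the 10 genes at an unadjusted p of 0.05 moved in 11 of 22 alternatives. Testing all genes without the filter gave 1 gene at an adjusted p of 0.05 (lowest adjusted p 0.0476), and leaving out a mouse gave 0. The genes at an unadjusted p of 0.05 numbered 418 without Exe 2 to 910 without Exe 5. Of the 10 genes, 0 were at an unadjusted p of 0.05 with no filter (5.34% of all genes), with the replicate block (5.54%) or with the acute-phase term (5.84%), 2 after quantile normalization (6.02%), and 0 to 1 with a mouse left out. The log2 fold change of Apoc3 was 0.22 with no filter and with the block, and 0.18 with the acute-phase term.

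Apoc3 was at an unadjusted p of 0.05 in 12 of 22 alternatives in limma (p from 0.0122 to 0.109, adjusted p from 0.509 to 0.999). Its exact permutation p was 0.0152 after rescaling to the same total, with or without the 10 genes, and ran from 0.00433 without Exe 5 to 0.108 with a mouse left out. The exact p of Apoa2 was 0.0346 after quantile normalization. Apob turned to a log2 fold change of -0.0544 (exact permutation p 0.387) after quantile normalization, and ran from -0.0315 to 0.0282 (exact p 0.463 to 0.983) with a mouse left out. Apoc2 was at 0.0046 (exact permutation p 0.952) after rescaling without the 10 genes, where the median of all genes was 0.06 and those of the receptors and regulators were 0.0364 and 0.0147. The causes were not tested.

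Con and Exe mice share replicate numbers, but same-numbered mice did not deviate together (r of deviations above 0.1 in 1 of 6 pairs, lowest -0.478), so the numbers were not taken as pairs. With the replicate block, 567 genes were at an unadjusted p of 0.05.

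With 6 mice per group, intervals were widest for Apoa4 and Apoa5, and precision within a mouse is limited by an unknown number of reads.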
